A study of Mus musculus with 12 samples.

Results

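The levels of gelsolin (Gsn) and 8 further genes of mature oligodendrocytes (Gjb1, Opalin, Ermn, Aspa, Trf, Tspan2, Plekhh1 and Car2) were followed in the forebrain of juvenile and adult mice with and without intact Shank3. These 9 genes, of 19268 in the table, were taken by symbol as genes of myelinating cells outside the main proteins of the sheath, and they were chosen with measured values of these libraries already known, above all the difference between ages. Values of that difference in these genes are therefore given below as a description, with no test. The mice were male and C57BL/6J. Forebrain without the olfactory bulb was taken at postnatal day 25 (P25, juvenile) or postnatal day 60 (P60, adult), and the library kit was the TruSeq RNA Sample Prep Kit v2. Knock-out (KO) mice were homozygous for a mutant Shank3 allele that lacks internal exons in every cell, and wild-type (WT) mice carried no mutant allele. The groups were P25-WT, P25-KO, P60-WT and P60-KO, with 3 libraries in each of the 4, from 1 mutant line, and the values are the authors' normalized counts, that is, estimated counts divided by factors that make libraries comparable.

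Oligodendrocytes wrap axons of the central nervous system in myelin. Their precursors leave the cell cycle, pass through a differentiating stage and then switch on a mature program under transcription factors such as Sox10, Olig2 and Myrf. In the mouse forebrain most of this happens in the weeks after birth, and the rate of new myelin formation declines towards adulthood while myelin itself persists. Gsn severs and caps actin filaments, and actin is disassembled as myelin wraps. Ermn encodes ermin, an actin-binding protein of the mature cell. Opalin and Tspan2 encode membrane proteins, a glycoprotein and a tetraspanin. Gjb1 encodes connexin 32, which forms gap junctions. Aspa encodes aspartoacylase, which splits N-acetylaspartate into acetate and aspartate. Trf encodes the iron carrier transferrin, Car2 encodes carbonic anhydrase 2, and Plekhh1 encodes a protein with pleckstrin homology and FERM domains.

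The deposited values summed to between 30568259 and 32348554 per library. Within a group, libraries had Pearson correlations from 0.982 to 0.988 across genes. Shank3 was lower in every KO library than in every WT library of its age, with means of 5174 and 10779 at P25 and of 4914 and 9796 at P60, and it was the single gene called between genotypes at either age (limma, adjusted p-value under 0.05 over all genes tested). The labelled tissue held the markers looked for: none of the marker genes of glutamatergic neurons, GABA neurons, astrocytes, microglia or endothelium was at 0 in any library. P25-WT replicate 2 stood apart. Its deviations from the group mean had a Spearman correlation of -0.42 with transcript length across all genes, against a range from -0.24 to 0.36 in the other libraries, so results that rest on it are given with and without it.

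In mouse assembly GRCm38, Gsn (ENSMUSG00000026879) lies on chromosome 2, 35256380 to 35307892, plus strand, and its longest coding transcript has 2653 bases in 17 exons. Opalin (ENSMUSG00000050121) lies on chromosome 19, 41061710 to 41077113, minus strand. Tspan2 (ENSMUSG00000027858) lies on chromosome 3, 102734529 to 102801513, plus strand, and Gjb1 (ENSMUSG00000047797) on chromosome X, 101376378 to 101385629, plus strand. Ermn (ENSMUSG00000026830) is on chromosome 2, 58045113 to 58052864, minus strand, and Aspa (ENSMUSG00000020774) on chromosome 11, 73304992 to 73329596, minus strand. Trf (ENSMUSG00000032554) is on chromosome 9, 103204001 to 103230444, minus strand. Plekhh1 (ENSMUSG00000060716) is on chromosome 12, 79029163 to 79081655, plus strand, and Car2 (ENSMUSG00000027562) is on chromosome 3, 14886273 to 14900770, plus strand. Of the 31-base words of Trf transcripts, 63.8% also occur in transcripts of other genes, mainly the overlapping Gm20425, which is not a row of the table, so the Trf values are uncertain. Of the words of Plekhh1, 14.4% lie antisense to other transcripts, chiefly of Pigh, and of those of Ermn 7.06% do, chiefly of Galnt5, and no source says if the counting was stranded. For the other 6 genes at most 1.24% of words were shared in either sense.

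Sequences upstream of the start sites are shown for Gsn, which was far lower at P60, with its 3 RefSeq starts, for Opalin, which was lower too, and for Ermn and Aspa, whose levels differed little between ages. The RefSeq promoter table of assembly GRCm38.p6 held 13 promoters of 7 of the 9 genes. Trf and Car2 are not among them. The values are per gene, so they cannot tell which of the Gsn starts, which lie 10385 and 26021 bases downstream of the first, was used. The 50 bases after the start were found in a GENCODE M21 transcript of the gene for the third Gsn start, Opalin and Ermn. For the first and second Gsn starts and for Aspa they were not, and the Aspa start lies inside the span given above for that gene. Each line gives the 250 bases that end just before a start, 5′ to 3′ on the strand of the gene, and none of these bases lies in an annotated exon of these genes. Capitals mark, on either strand, ACAAAG or ACAATG (a core bound by SOX factors), CTGGNAC (a core bound by MYRF) and CAGCTG (an E-box). Each printed window holds 1 such match.
Gsn start 1 (chr2:35256109-35256358, plus strand): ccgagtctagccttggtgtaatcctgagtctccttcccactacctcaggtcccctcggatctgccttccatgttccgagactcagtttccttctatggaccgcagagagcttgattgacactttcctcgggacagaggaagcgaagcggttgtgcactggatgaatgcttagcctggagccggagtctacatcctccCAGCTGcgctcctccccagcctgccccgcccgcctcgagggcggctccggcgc
Gsn start 2 (chr2:35266494-35266743, plus strand): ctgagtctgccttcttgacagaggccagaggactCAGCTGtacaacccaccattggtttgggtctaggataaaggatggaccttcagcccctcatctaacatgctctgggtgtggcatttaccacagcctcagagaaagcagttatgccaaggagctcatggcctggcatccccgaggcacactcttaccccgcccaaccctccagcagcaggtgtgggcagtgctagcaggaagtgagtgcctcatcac
Gsn start 3 (chr2:35282130-35282379, plus strand): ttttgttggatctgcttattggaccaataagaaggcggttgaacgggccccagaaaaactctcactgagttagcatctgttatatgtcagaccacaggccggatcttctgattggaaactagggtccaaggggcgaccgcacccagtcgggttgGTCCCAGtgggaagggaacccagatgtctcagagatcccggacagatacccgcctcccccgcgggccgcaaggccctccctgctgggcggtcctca
Opalin (chr19:41077114-41077363, minus strand): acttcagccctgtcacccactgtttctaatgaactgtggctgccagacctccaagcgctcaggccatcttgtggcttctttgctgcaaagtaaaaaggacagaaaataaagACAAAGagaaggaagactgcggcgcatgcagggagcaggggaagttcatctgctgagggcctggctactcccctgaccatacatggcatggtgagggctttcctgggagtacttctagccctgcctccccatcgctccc
Ermn (chr2:58052865-58053114, minus strand): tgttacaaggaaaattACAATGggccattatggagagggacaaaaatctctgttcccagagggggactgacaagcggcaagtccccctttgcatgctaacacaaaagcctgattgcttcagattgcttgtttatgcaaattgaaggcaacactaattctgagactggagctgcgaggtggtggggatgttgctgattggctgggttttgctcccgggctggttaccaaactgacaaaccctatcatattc
Aspa (chr11:73324638-73324887, minus strand): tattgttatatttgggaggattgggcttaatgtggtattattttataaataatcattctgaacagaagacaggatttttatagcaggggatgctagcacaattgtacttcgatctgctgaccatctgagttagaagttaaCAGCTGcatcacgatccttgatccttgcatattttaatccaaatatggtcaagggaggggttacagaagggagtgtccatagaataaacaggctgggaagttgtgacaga
The SOX core was found in 5 of the 13 promoters of these genes and in 25.2% of all 32851 promoters in the table. The MYRF core was found in 4 of 13 and in 16.1% of all, and the E-box in 3 of 13 and in 13.0% of all. In the printed windows, the SOX core is in those of Opalin and Ermn, the MYRF core is in that of the third Gsn start, and the E-box is in those of the first and second Gsn starts and of Aspa. These matches are a description of the letters in these windows.

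Gsn had the largest difference between ages of the 9 genes. In WT mice it had 9071, 8831 and 9263 normalized counts at P25 and 2643, 2741 and 2427 at P60. In KO mice it had 8292, 8637 and 9167 at P25 and 2684, 2740 and 2161 at P60. Every P60 library lay far below every P25 library, and the genotypes overlapped at both ages. The P60 mean was 28.8% of the P25 mean in WT and 29.1% in KO mice. The log2 difference, on the log2(value + 1) scale used throughout, was -1.80 ± 0.07 (SE) in WT and -1.79 ± 0.09 in KO mice (n = 3 against 3 libraries in each). From the lowest, this was the 63rd of 17581 genes in WT and the 56th of 17596 in KO mice. In bulk tissue, fewer cells of a type and less RNA per cell cannot be told apart.

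**Figure D1:**
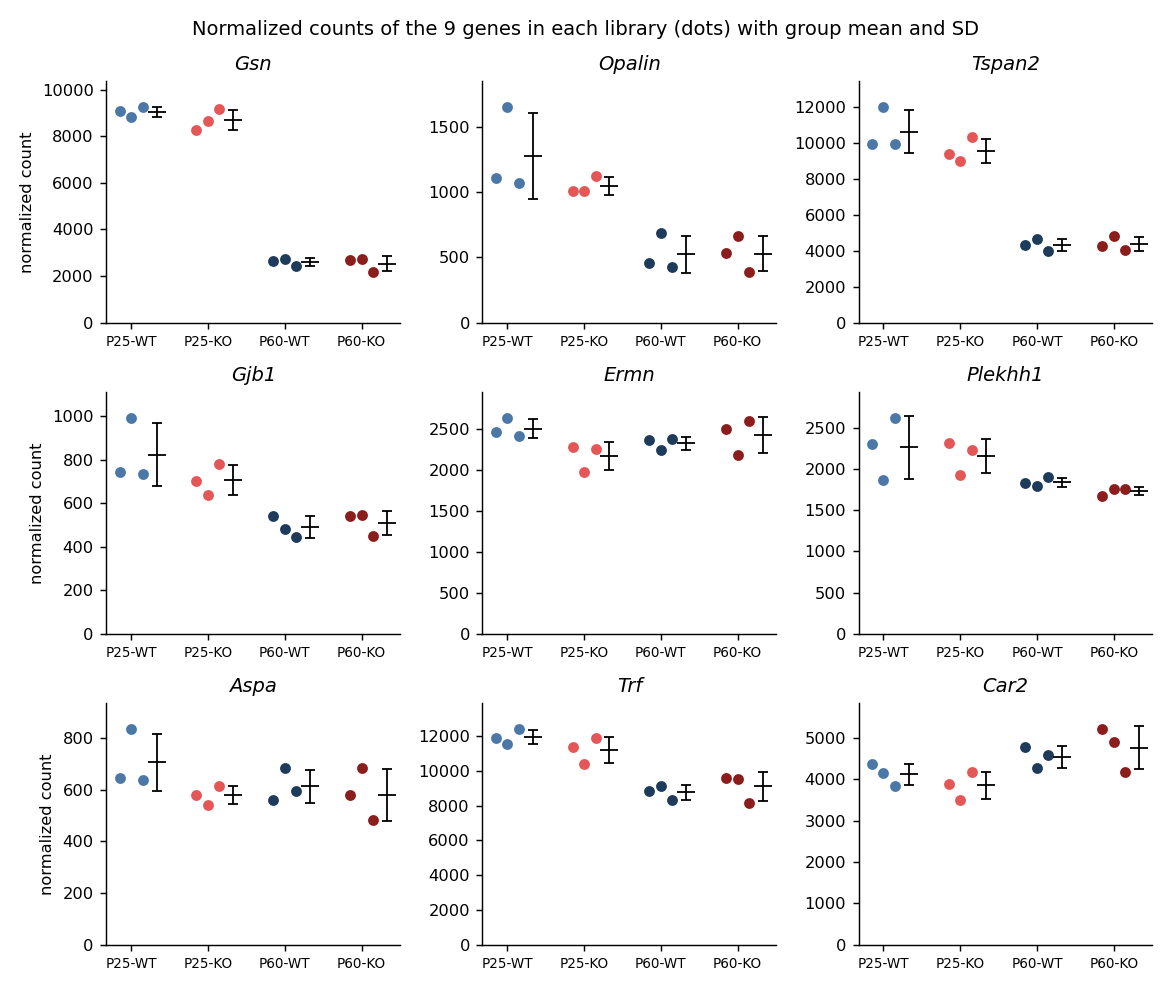
Normalized counts of each of the 9 genes, 1 panel per gene, against group on the x axis; dots are single libraries and the black bar beside them is the group mean with its SD (n = 3). Gsn, Opalin, Tspan2, Gjb1 and Trf lie lower in all 6 P60 libraries than in all 6 P25 libraries, while the P25 and P60 libraries of Ermn and Aspa overlap, and P25-WT replicate 2 is the highest library for Opalin, Tspan2, Gjb1 and Aspa.

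The membrane proteins Tspan2 and Opalin followed. Tspan2 had 9957, 11995 and 9909 normalized counts in P25-WT and 9359, 8985 and 10295 in P25-KO libraries. At P60 it had 4309, 4674 and 3974 in WT and 4245, 4788 and 4021 in KO libraries. The ages were apart in both genotypes, and the P60 mean was 40.7% of the P25 mean in WT and 45.6% in KO mice. Opalin had 1114, 1658 and 1070 in P25-WT and 1011, 1010 and 1130 in P25-KO libraries. At P60 it had 459, 687 and 427 in WT and 538, 662 and 390 in KO libraries. Here too the ages did not overlap, but the libraries were far apart in 3 of the 4 groups: the SD was 25.6% of the mean in P25-WT, 25.7% in P60-KO and 27.0% in P60-WT and 6.56% in P25-KO libraries, against 2.39% to 12.6% over the 4 groups for Gsn. The log2 differences were -1.30 ± 0.10 in WT and -1.13 ± 0.07 in KO mice for Tspan2, and -1.29 ± 0.21 and -1.02 ± 0.16 for Opalin (SE, n = 3 against 3). Without P25-WT replicate 2 the WT values were -1.20 for Tspan2 and -1.09 for Opalin.

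Gjb1 and Trf had smaller differences. Gjb1 had 743, 990 and 734 normalized counts in P25-WT and 701, 639 and 778 in P25-KO libraries, against 542, 481 and 445 in P60-WT and 539, 543 and 447 in P60-KO libraries. The ages did not overlap, and the log2 difference was -0.74 ± 0.14 in WT and -0.47 ± 0.11 in KO mice. Without P25-WT replicate 2 the WT value was -0.60. Trf had 11882, 11558 and 12402 in P25-WT and 11349, 10393 and 11904 in P25-KO libraries. It had 8868, 9163 and 8309 in P60-WT and 9585, 9558 and 8176 in P60-KO libraries, a P60 mean of 73.5% of the P25 mean in WT and of 81.2% in KO mice. No P60 library reached a P25 library of either gene.

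Plekhh1 had 2308, 1865 and 2621 normalized counts in P25-WT and 2317, 1932 and 2230 in P25-KO libraries. At P60 it had 1825, 1791 and 1903 in WT and 1676, 1757 and 1758 in KO libraries. The ages did not overlap in KO mice. In WT mice they did, because P25-WT replicate 2 lay below P60-WT replicate 3. The log2 difference was -0.29 ± 0.12 in WT and -0.32 ± 0.07 in KO mice, and the WT value was -0.42 without P25-WT replicate 2 and -0.17 without P25-WT replicate 3. At P60 this gene had the least spread of the 9, with an SD of 2.73% of the mean in KO and 3.11% in WT mice.

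Aspa, Ermn and Car2 had log2 differences from -0.20 to 0.14 in WT and from -0.01 to 0.30 in KO mice. Aspa had 645, 833 and 637 normalized counts in P25-WT and 581, 541 and 614 in P25-KO libraries, and 560, 684 and 594 in P60-WT and 580, 681 and 481 in P60-KO libraries. Its ages overlapped in both genotypes, with log2 differences of -0.20 ± 0.13 in WT and -0.01 ± 0.12 in KO mice. Without P25-WT replicate 2 the WT value of Aspa was -0.07. Ermn had 2458, 2628 and 2405 in P25-WT and 2269, 1966 and 2248 in P25-KO libraries, and 2355, 2233 and 2370 in P60-WT and 2500, 2177 and 2597 in P60-KO libraries. The WT libraries were lower at P60 without overlap and the KO libraries overlapped, with log2 differences of -0.11 ± 0.08 and 0.17 ± 0.08. The WT value was -0.07 without P25-WT replicate 2 and the KO value 0.10 without P25-KO replicate 2. With each library's trends on transcript length and GC content removed, the Ermn differences were -0.31 ± 0.07 in WT and -0.03 ± 0.08 in KO mice. Car2 had 4360, 4159 and 3848 in P25-WT and 3891, 3506 and 4167 in P25-KO libraries, and 4787, 4264 and 4600 in P60-WT and 5214, 4907 and 4184 in P60-KO libraries. It was higher at P60 without overlap in KO mice, by 0.30 ± 0.09 on the log2 scale, and its ages overlapped in WT mice, with a difference of 0.14 ± 0.08, which was 0.09 without P25-WT replicate 3.

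Over the 9 genes, the median log2 difference between ages was -0.45 in WT and -0.32 in KO mice, against -0.001 and 0.006 over all genes tested. All P60 libraries lay below all P25 libraries for 6 genes in WT mice (18.4% of all genes) and for 6 in KO mice (20.5%), and above them for 0 in WT (17.6%) and for 1 in KO mice (18.9%). Since these genes were chosen with this difference known, nothing is read from these counts.

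**Figure D2:**
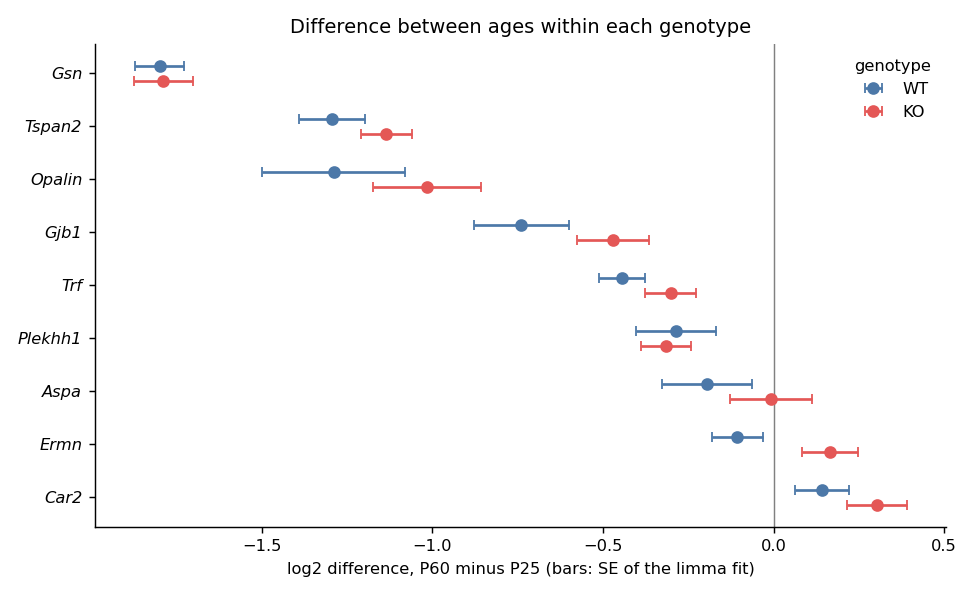
Log2 difference between P60 and P25 (x axis) for each of the 9 genes (y axis) in WT and KO mice; dots are limma estimates from 3 against 3 libraries and bars are their SE. Gsn lies near -1.80 in both genotypes, Tspan2 and Opalin lie between -1.30 and -1.02, and Aspa, Ermn and Car2 lie between -0.20 and 0.30.

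Per kilobase of the longest coding transcript, the order of the genes differed between ages. At P25 Trf had the highest level, 4647 normalized counts per kilobase in WT and 4362 in KO mice, followed by Gsn with 3413 and 3279. Tspan2 and Car2 came next with 2368 and 2306 in WT and 2129 and 2156 in KO mice, and their libraries overlapped. Ermn and Opalin overlapped at 687 and 696 in WT and 595 and 571 in KO mice. Gjb1, Aspa and Plekhh1 had the lowest levels, from 519 down to 352 in WT and from 446 down to 331 in KO mice. Gjb1 lay above the other two without overlap in KO mice, while in WT mice each of these 3 overlapped with the next. At P60 Trf stayed first, with 3415 in WT and 3542 in KO mice, and Car2 was second with 2545 and 2667. Gsn was then at the level of Tspan2, 981 against 963 in WT and 953 against 970 in KO mice, and the libraries overlapped. Ermn followed with 638 and 667, and Aspa, Gjb1, Plekhh1 and Opalin lay between 351 and 285 in WT and between 333 and 269 in KO mice, each overlapping with the next in order. The order depended on the length used. Per kilobase of all exons merged, Aspa was the lowest of the 9 in every group (118 in P25-WT and 103 in P60-WT libraries), Opalin lay below Gjb1 (435 against 482 in P25-WT libraries), and Tspan2 lay above Car2 at P25 (2234 against 1702 in WT and 2008 against 1591 in KO mice).

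Taken against Trf in the same library, the Gsn level per kilobase was 0.724 to 0.740 of that of Trf in P25-WT and 0.708 to 0.805 in P25-KO libraries. At P60 it was 0.283 to 0.290 in WT and 0.256 to 0.278 in KO libraries. Against Ermn, the Gsn level was 4.6 to 5.28 times as high in P25-WT and 5.01 to 6.02 times in P25-KO libraries, and 1.40 to 1.68 times in P60-WT and 1.14 to 1.72 times in P60-KO libraries. Against Car2, it was 1.40 to 1.62 times as high in P25-WT and 1.44 to 1.66 times in P25-KO libraries, and 0.356 to 0.433 in P60-WT and 0.347 to 0.376 in P60-KO libraries. A single scaling factor per library cancels in these ratios, but a library's trends on transcript length or GC content do not. Against the other 5 genes, the ratios of Gsn to Gjb1, Aspa, Tspan2 and Plekhh1 also lay higher at P25 without overlap in both genotypes. The ratio to Opalin did so in KO mice (5.62 to 5.93 at P25 and 2.87 to 3.84 at P60), and in WT mice its ages overlapped (3.69 to 6.00 and 2.76 to 3.99).

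Other genes of the oligodendrocyte lineage were taken from 4 lists. A gene was called when its Benjamini-Hochberg adjusted p-value from limma, over all genes tested, was under 0.05. Of all genes, 4.99% were called lower at P60 and 3.66% higher in WT mice, and 11.3% and 9.37% in KO mice. All 12 genes of the myelin sheath and its lipids were called lower at P60 in both genotypes, with a median log2 difference of -1.33 in WT and -1.14 in KO mice. Ugt8a, which makes the sheath lipid galactosylceramide, differed by -1.61 in WT and -1.39 in KO mice, and Mog, a protein of the outer sheath, by -1.46 and -1.21. Gsn thus differed more between ages than any gene of this list in these estimates. Of 8 lineage transcription factors, 6 were called lower in WT and 8 in KO mice, with medians of -0.62 and -0.50, among them Olig1 (-0.78 and -0.70) and Sox8 (-0.63 and -0.58). Of 14 genes of precursors and differentiating cells, 6 were called lower in WT and 8 in KO mice and 0 higher, with medians of -0.36 and -0.35. Enpp6 and Gpr17, markers of newly formed and committed cells, differed by -1.41 and -1.22 in WT and by -1.23 and -1.19 in KO mice.

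The list of 21 other mature oligodendrocyte genes was divided between the directions. In WT mice 5 were called lower, 2 higher and 14 not called, with a median of -0.19, and in KO mice 4 were called lower, 4 higher and 13 not called, with a median of -0.001. Among those called lower in both genotypes, Tmem125 differed by -1.05 in WT and -0.81 in KO mice, Ppp1r14a by -0.83 and -0.67 and Adamts4 by -0.77 and -0.81. Hapln2, which encodes a link protein of the node, and Anln, which encodes the actin-binding anillin, were called higher in both genotypes, by 0.52 and 0.45 on the log2 scale in WT and by 0.60 and 0.79 in KO mice. These 2 were singled out after their values were seen. The WT median of this list ran from -0.192 to -0.075 when 1 library was left out. The WT calls depended on single libraries: without P60-WT replicate 3 the lower calls were 1 in this list, 1 among the precursor genes, 2 among the transcription factors and 11 in the sheath list, and without P25-WT replicate 2 they were 8, 9, 7 and 12. The WT calls of Tmem125 and Adamts4 were lost without P60-WT replicate 3, and those of Ppp1r14a, Hapln2 and Anln without P25-WT replicate 1 and without each of the 3 P60-WT replicates, and that of Anln without P25-WT replicate 3 too.

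**Figure D3:**
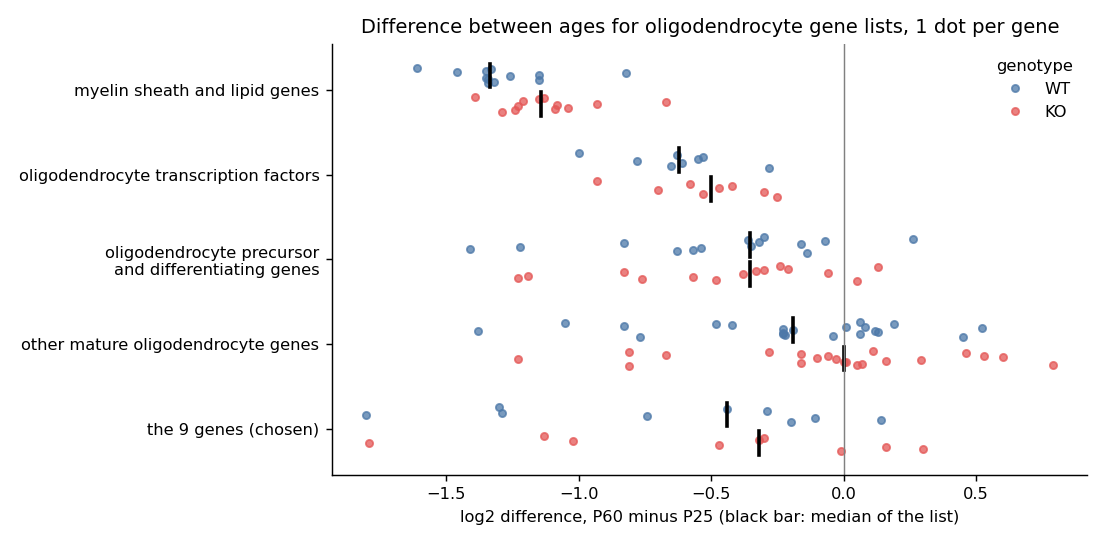
Log2 difference between P60 and P25 (x axis) for the genes of 4 oligodendrocyte lists and for the 9 chosen genes (y axis), 1 dot per gene in WT and in KO mice, with a black bar at the median of each list. All 12 sheath genes lie at or below -0.67, while the 21 other mature genes and the 9 chosen genes lie on both sides of 0.

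The families to which the 9 genes belong were compared next. Of the 7 gelsolin family genes tested, none of those other than Gsn was called between ages in either genotype. Vil1 had mean levels of 13.1 to 25.1 normalized counts and a log2 difference of -0.89 in WT and -0.62 in KO mice, Capg had -0.69 and -0.54 and Vill -0.46 and -0.28, and none of these passed the test. Flii, the family member with the highest mean after Gsn in every group, differed by 0.28 and -0.02. Among other connexins, Gja1 of astrocytes was called lower in both genotypes, with -0.31 and -0.24. Gjc3, also a connexin of oligodendrocytes, differed by -0.19 and -0.03 and was not called. Of the 10 tetraspanins, beside Tspan2, Cd9, Cd81 and Cd82 were called lower in both genotypes, with log2 differences of -0.82 and -0.67 for Cd9 and of -0.65 and -0.56 for Cd81, and Tspan3 and Tspan7 in KO mice alone. Where a gene was called in 1 genotype, the difference between genotypes was not itself called, here or in the lists that follow (0 genes in the interaction, limma, with 288 of 17594 at an unadjusted p under 0.05).

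Ezr, Rdx and Msn, whose actin-binding end resembles that of ermin, and their relative Nf2 were between -0.15 and 0.12 in both genotypes and none of them was called. Among the 8 genes of N-acetylaspartate metabolism, Slc13a3, a carrier that can take up N-acetylaspartate, was called lower, by -0.48 in WT and -0.54 in KO mice. Folh1, an enzyme that releases N-acetylaspartate from its dipeptide with glutamate, was called higher, by 0.55 in each. Rimklb and Rimkla, which join N-acetylaspartate to glutamate, were not called (-0.15 and -0.20 for Rimklb, -0.03 and 0.19 for Rimkla). Of the iron genes besides Trf, Ftl1, the ferritin light chain, was called lower in both genotypes, with -0.57 and -0.42. Aco1 was called lower and Cp, ceruloplasmin, higher in WT mice alone, with values of -0.32 and -0.22 for Aco1 and of 0.63 and 0.72 for Cp in WT and KO mice. Plekhh2 was called higher in KO mice, 0.43 against 0.42 in WT, where it was not, and Plekhh3 was not called in either. Among the carbonic anhydrases besides Car2, Car12 was called higher in both genotypes, by 0.56 and 0.38, and 0 were called lower.

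The calls in these families also depended on single libraries. Without P25-WT replicate 1, P60-WT replicate 1 or P60-WT replicate 3, 0 genes of the iron, N-acetylaspartate and carbonic anhydrase lists were called in WT mice (limma), so the WT calls of Ftl1, Aco1, Cp, Slc13a3, Folh1 and Car12 were lost each time. Without P60-WT replicate 2 those of Ftl1, Aco1, Cp, Slc13a3 and Folh1 were lost, that of Aco1 without P25-WT replicate 3 too, and that of Cp without P25-WT replicate 2. Of the tetraspanins, Cd9, Cd81 and Cd82 lost their WT calls without P60-WT replicate 3, Cd9 and Cd82 without P25-WT replicate 1, and Cd9 without P60-WT replicate 1 or 2. The WT call of Gja1 held only with all libraries or without P25-WT replicate 2, and its KO call was lost without P25-KO replicate 2 or 3 or P60-KO replicate 1 or 2. In KO mice, the call of Tspan7 was lost without any 1 of the 6 libraries, that of Tspan3 without P25-KO replicate 1 or 3 or P60-KO replicate 3, and those of Folh1 and Plekhh2 without P60-KO replicate 1.

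Over the 12 libraries, the genes whose levels were most like those of Gsn by Pearson correlation, among 17585 genes, were Mag (0.998), Fa2h (0.997), Cnp (0.997), Sema4d (0.996) and Sirt2 (0.995). Mag, Fa2h and Cnp are on the sheath list, Sema4d encodes a semaphorin and Sirt2 a deacetylase. The 12 points fall into an upper cluster of 6 P25 libraries and a lower one of 6 P60 libraries, so these values mostly restate a large difference between ages. Sirt2 had means of 8041 and 4178 normalized counts in P25-WT and P60-WT libraries, a smaller ratio than that of Gsn, 9055 to 2604.

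Markers of other cell types also differed between ages. The summed level of 3 blood markers was 13049 to 27394 normalized counts at P25 and 3670 to 4368 at P60, without overlap. The 4 fibroblast markers summed to 2736 to 3039 at P25 and to 1551 to 2030 at P60, a sum in which Col1a1 and Col1a2 have most of the weight. Col1a1 had log2 differences of -1.18 in WT and -1.24 in KO mice, while those of Dcn were -0.06 and 0.07. The 6 astrocyte markers summed to 51326 to 62242 and to 46244 to 49848. Fibroblasts also express Gsn, red cells Car2 and choroid plexus Trf. The 5 choroid plexus markers summed to 10495 to 14313 at P25 and to 12474 to 18318 at P60, and those of GABA neurons, microglia, endothelium and ependyma overlapped between ages. The 5 glutamatergic neuron markers summed to 116121 to 123074 at P25 and to 104699 to 110688 at P60, but not all of them differed in this direction. Neurod6 had log2 differences of 0.27 in WT and 0.34 in KO mice and Slc17a6 of 0.00 and 0.07, and the mean log2 level of the 5, each centred on its own mean, overlapped between ages (-0.069 to 0.086 at P25 and -0.077 to 0.028 at P60). The 12 sheath genes summed to 423515 to 551374 at P25 and to 206222 to 234262 at P60. None of these markers was at 0 in any library, and their part in the levels of the 9 genes was not tested.

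The comparison of KO with WT mice asked whether loss of intact Shank3 came with other levels of these genes at each age. At P25 each of the 9 genes had a lower mean log2 value in KO mice, as it was for 53.4% of the 17515 genes tested. The median over the 9 genes was -0.15, against -0.008 over all genes. None of the 9 was called (0 genes, limma, where 0.00571% of all genes were), with adjusted p-values of 1.0 for each. At an unadjusted p under 0.05 there was 1, Ermn (log2 difference -0.21 ± 0.08, SE), against 1.36% of all genes. The libraries of the genotypes were apart, with KO lower, for 2 of the 9, Ermn and Aspa (2.5% of all genes), and with KO higher for 0 (2.26%). The Aspa difference was -0.28 ± 0.12 and that of Opalin -0.26 ± 0.16. That oligodendrocyte genes lay lower in P25-KO libraries was known when the 9 genes were chosen, so their shared direction is not independent evidence.

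Single P25 libraries set the size of several of these differences. P25-WT replicate 2 had 1.52 times the mean of the other P25-WT libraries for Opalin, 1.34 times for Gjb1, 1.3 times for Aspa and 1.21 times for Tspan2, and 0.757 times for Plekhh1, while for Gsn and Trf it had 0.963 and 0.952 times. With all libraries the KO mean was 82.0% of the WT mean for Opalin, 85.9% for Gjb1 and 89.9% for Tspan2. Without this library the shares were 96.2%, 95.6% and 96.1%. For Aspa the share went from 82.1% to 90.2% and for Ermn from 86.6% to 88.9%, and the genotypes stayed apart for both. For Plekhh1 it went from 95.4% to 87.7%. The median over the 9 genes became -0.09, and all 9 stayed below 0. In P25-KO replicate 2, 8 of the 9 genes were at the lowest of the 3 libraries. Without P25-KO replicate 2, 8 of 9 were below 0 with a median of -0.11. Without P25-WT replicate 3, 8 of 9 were, with Plekhh1 at 0.05 and a median of -0.20. The median was also further from 0 without P25-KO replicate 3 (-0.21) and without P25-WT replicate 1 (-0.19), and it was -0.14 without P25-KO replicate 1.

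**Figure D4:**
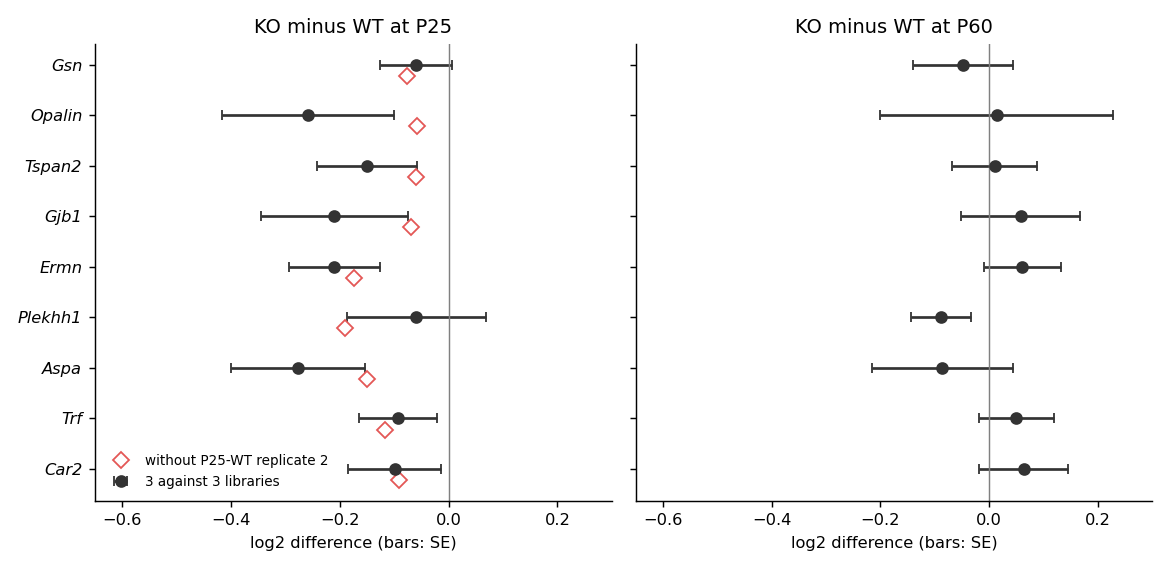
Log2 difference between KO and WT mice (x axis) for each of the 9 genes (y axis) at P25 and at P60; dots are limma estimates from 3 against 3 libraries with their SE, and open diamonds at P25 are the estimates without P25-WT replicate 2. At P25 all 9 dots lie below 0, and the diamonds of Opalin, Tspan2 and Gjb1 lie between -0.07 and -0.06.

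Among other oligodendrocyte lists, the same direction at P25 was seen in the sheath genes (12 of 12 below 0, median -0.13), in the other mature genes (21 of 21, median -0.12) and in the transcription factors (8 of 8, median -0.06), and in 9 of 14 precursor genes (median -0.02). Of all genes, 53.4% were below 0. These lists too were chosen with earlier results of these data known, and their genes were measured in the same libraries. Their shared direction is therefore not independent evidence either. Markers of some other cell types lay lower too. The microglia markers were lower for 5 of 6, with a median of -0.16, and those of ependyma for 3 of 3, with a median of -0.21, while those of glutamatergic neurons were for 2 of 5, with a median of 0.005, and those of blood for 0 of 3, with a median of 0.16. When 1 library was left out, the medians ran from -0.248 to -0.061 for microglia, from -0.259 to -0.16 for ependyma, from -0.027 to 0.045 for glutamatergic neurons and from -0.112 to 0.402 for blood. The part of other cell types in the differences of the 9 genes was not tested. No gene of these lists was called between genotypes at either age (0 genes, limma). When 1 library was left out, the sheath list kept 12 of 12 below 0 each time, with medians from -0.19 to -0.06. The other mature genes went from 21 to 16 and the transcription factors from 8 to 5, both lowest without P25-WT replicate 3, and the precursor genes were then 5 of 14. Medians ran from -0.168 to -0.058 for the other mature genes, from -0.091 to -0.024 for the transcription factors and from -0.064 to 0.02 for the precursor genes.

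At P60 the 9 genes were divided between the directions, 3 lower and 6 higher in KO mice, with a median of 0.01 against 0.00 over all 17610 genes tested. None was called (0 genes, limma, where 0.00568% of all genes were, with 0 of the 9 at an unadjusted p under 0.05, against 2.5% of all genes), and the adjusted p-values were 1.0 for each. The genotypes were apart with KO lower for 1 gene, Plekhh1 (3.63% of all genes), with a log2 difference of -0.09 ± 0.05, and with KO higher for 0 (4.16%). The differences of Gsn (-0.05 ± 0.09), Tspan2 (0.01 ± 0.08), Opalin (0.01 ± 0.21) and Ermn (0.06 ± 0.07) were smaller than their errors. The largest absolute difference was 0.09, that of Plekhh1 and Aspa.

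Whether the difference between ages was itself different in KO mice was asked by the genotype by age interaction. It was positive for 8 of the 9 genes and negative for Plekhh1, and it was positive for 51.8% of all genes. The median was 0.16 against 0.006 over 17594 genes. The interaction contains the P25 genotype difference, whose direction was known when the 9 genes were chosen. Their shared sign here is therefore not independent evidence. None of the 9 was called (0 genes, limma, as for 0.0% of all genes), with adjusted p-values of 1.0. At an unadjusted p under 0.05 there was 1 of the 9, Ermn, against 1.64% of all genes. Ermn had 0.27 ± 0.11, and its mean was 2497 and 2319 in P25-WT and P60-WT and 2161 and 2425 in P25-KO and P60-KO libraries. Gsn had 0.01 ± 0.12, the smallest of the 9. Opalin and Gjb1 had 0.27 ± 0.30 and 0.27 ± 0.18, and without P25-WT replicate 2 these were 0.07 and 0.13. That of Aspa went from 0.19 to 0.06 without this library, and the median over the 9 genes was 0.10. The interaction and both genotype comparisons use the same libraries.

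Within groups, the 9 genes did not vary as 1 block. Pearson correlations of their log2 deviations from the group means over the 12 libraries, given as a description of libraries that share their processing, ran from -0.54 to 0.95 over 36 pairs with a median of 0.40. They were highest among Opalin, Aspa and Tspan2 (0.95 for Opalin with Aspa, 0.92 for Opalin with Tspan2 and 0.90 for Aspa with Tspan2). Gsn went with Trf (0.86), and Gjb1 with Tspan2 (0.82). Plekhh1 went against Opalin (-0.50) and Ermn against Gsn (-0.54). In P60-KO replicate 3, 7 of the 9 genes were at the lowest of the 3 libraries, and in P25-KO replicate 3, 7 were at the highest. The deviations of the 9 genes had Spearman correlations with their own transcript lengths of -0.58 in P25-WT replicate 2, 0.73 in P25-WT replicate 3 and 0.68 in P60-KO replicate 3, in the direction of the values over all genes of -0.42, 0.36 and 0.21. The part of transcript length in these deviations was not tested beyond the fit without a trend on length and GC content.

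**Figure D5:**
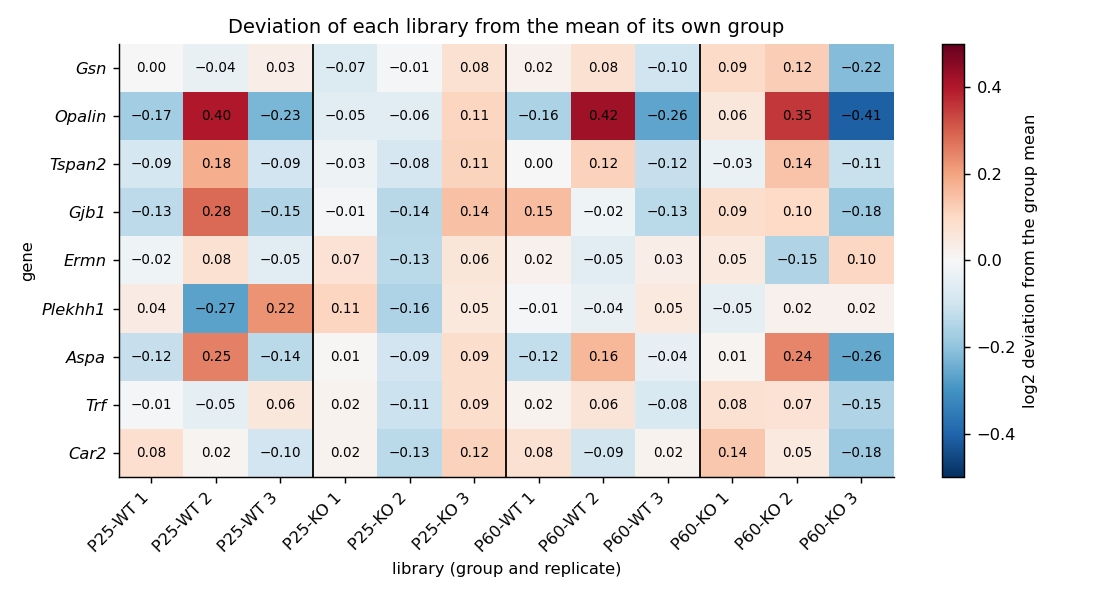
Log2 deviation of each library (x axis) from the mean of its own group for each of the 9 genes (y axis), with the value in each cell; red is above and blue below the group mean. Opalin, Tspan2 and Aspa are high together in P25-WT replicate 2, P60-WT replicate 2 and P60-KO replicate 2, and P25-KO replicate 2 is below the mean for all 9 genes.

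The genes whose within-group deviations were most like the mean deviation of the 9, by Pearson correlation among 17585 genes, were Apoc1 (0.964), Ntf3 (0.958), Rnf130 (0.951), Tcap (0.946) and Smyd2 (0.945). None of these is on an oligodendrocyte list. Apoc1, with means of 17.2 to 30.5 normalized counts, and Ntf3, with 32.8 to 43.3, are low genes. The most alike of so many genes over 12 libraries reach high values whatever their role, so these names are a description of these libraries only.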

How the data were processed

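RNA from the forebrain of 12 mice was sequenced, and groups and replicate numbers came from the sample titles. The study quantified transcripts with Salmon (1.1.0 per the submitters' processing notes) with a correction for GC bias and the authors normalized them with DESeq2 (1.26.0 in R 3.6.2 per the same notes, while the study's methods give other versions). The deposited values are signal on a count scale, normalized estimated counts that the authors computed over all 12 libraries. They are not whole reads: at most 12.2% of values under 30 in any library were whole multiples of 1 step (within 0.02 steps). No count model was therefore fitted, the depth behind each value is unknown, and no interval or floor was computed. The transcript annotation used by the authors is not given in the sources used here. Positions, lengths and shared 31-base words came from GENCODE M21 (GRCm38), in which 19252 of 19268 identifiers were found.

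Differences were fitted with limma 3.58.1 in R 4.3.3 (lmFit and eBayes, trend included) on log2(value + 1), for genes whose mean over the fitted libraries was 10 or more, with Benjamini-Hochberg adjustment over all genes tested. All 9 genes passed this filter. Each comparison used its own 6 libraries, and the interaction all 12. Nothing says that libraries came from separate litters, so p-values measure the spread between these 3 mice per group. The 9 genes and the gene lists were chosen with earlier results of these data known. Genes outside the 9 were named by a rule, as at most 4 per list with the largest mean difference between ages, family relatives of the 9, and the 5 genes most correlated with Gsn or with the mean deviation of the 9, except where said otherwise and where a gene is not reported here. Replicate numbers would have been taken as pairs if the deviations of each same-numbered pair had correlated above 0.1, which held in no comparison. The alternatives changed the pseudocount, minimum mean, scaling, variance model and libraries in the fit, added the replicate block, or removed each library's trend with length and with GC, by a spline of 5 degrees of freedom for each (chosen after seeing the data).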

Additional observations from a re-analysis of the deposited data

How the results depend on the processing

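Each comparison was recomputed with the other settings named in the methods, of which the removal of trends on length and GC was chosen after seeing the data. The cause of a change was not tested. No value of the 9 genes passed or lost the threshold between genotypes or in the interaction, and their directions were kept outside the cases below and, between ages in KO mice, those of Aspa (0.03 with equal totals, and -0.13 to 0.121 when 1 library was left out, against -0.007) and Ermn (-0.03 without length and GC trends, against 0.165).

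Between genotypes 1 gene, Shank3, was called at each age. At P25 this was 0 without the variance trend, with the replicate block and without length and GC trends, and 0 to 8 when 1 library was left out. At P60 it was 0 without the variance trend and 1 to 3 when 1 library was left out. Between ages, the 1521 calls in WT mice became 192 without the variance trend, 3442 with all 12 libraries in 1 fit and 122 to 2403 when 1 library was left out (lowest without P60-WT replicate 3, highest without P25-WT replicate 2). The 3641 in KO mice became 1725 without the variance trend and 2093 to 3230 when 1 library was left out. With equal totals for all libraries, calls in WT mice were 991 higher and 681 lower (644 and 877 as deposited), and those in KO mice were 2108 and 1620 (1649 and 1992). The interaction had 0 calls, and 0 to 1 when 1 library was left out.

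The interaction value of Gsn was -0.006 with equal totals and -0.004 without length and GC trends, and that of Plekhh1 was 0.001 in the latter. When 1 library was left out, the P25 genotype difference ran from -0.191 to 0.054 for Plekhh1. The P60 one ran from -0.111 to 0.06 for Gsn, -0.008 to 0.15 for Gjb1, -0.163 to 0.225 for Opalin, -0.209 to 0.042 for Aspa, -0.061 to 0.069 for Tspan2 and -0.005 to 0.154 for Car2. The interaction ran from -0.052 to 0.119 for Gsn and from -0.142 to 0.103 for Plekhh1.

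By the rule given in the methods, replicate numbers were not taken as pairs. Deviations of same-numbered libraries correlated from -0.11 to 0.05, and from 0.07 to 0.17 between genotypes at P60. There all 3 values were positive and 2 of 3 pairs were above 0.1. At P60 the replicate block took the genes at an unadjusted p under 0.05 (limma) from 440 to 1017 of 17610. Whether same-numbered P60 libraries share a source of variation was not tested. With the replicate block, 0 genes were called at P25, 1 at P60, 1791 between ages in WT, 2482 in KO mice and 0 in the interaction.

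No genotype difference of the 9 genes passed the threshold adjusted over all genes tested, and the depth behind the values is unknown.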
